A study of Mus musculus with 77 samples.

Results

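Peak lists of 19 CUT&RUN libraries, of 77 in the whole series, were compared between 2 ways of preparing wild-type B cells. All 19 came from splenic CD23+ B cells, a gate that holds mostly follicular B cells, of female animals after 24 h with 1 µM CpG, a DNA ligand of the receptor TLR9, and each was made with an antibody against H3K27me3, H2AK119Ub or H3K27ac. The members were chosen by their labels, with no measured value. They were the 10 libraries titled WT mb1 (4 for H3K27me3, 3 each for the other marks) and the 9 titled WT tat (3 per mark). The WT mb1 cells have the genotype WT (mb1-cre+), so they carried the Cre transgene of the B lineage, were given no enzyme in culture, and were the controls of Xist fl/fl ; mb1-cre+ mice. The WT tat cells have the genotype WT, were given 80 µg of the cell-permeant Cre protein TAT-Cre for 45 min before CpG, and were the controls of Xist fl/fl cells given the same enzyme. Both groups therefore met Cre recombinase, and neither is labelled as carrying a floxed Xist allele. The ages of the mice are not given in the labels.

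The names of the groups stand for several things at once. The mb1-cre transgene, the TAT-Cre protein and its handling, the mice, and any batch of libraries differed or may have differed between WT mb1 and WT tat, and these cannot be told apart. In mb1-cre mice Cre is expressed from the Cd79a (mb1) locus from early B cell stages on, whereas TAT-Cre reaches whatever cells are in the dish. The replicates are named biological, but whether each was a different mouse is not stated, and p-values here cover only the spread among these libraries, which may be technical. The number of reads per library was not among the values used here, so a difference in list length or peak width and a difference in depth cannot be told apart. In bulk chromatin, fewer marked cells and less mark per cell cannot be told apart either.

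CUT&RUN uses an antibody to tether a nuclease that cuts out the DNA around marked nucleosomes. H3K27me3 is written by Polycomb repressive complex 2 and H2AK119Ub by Polycomb repressive complex 1, and the marks form broad domains over silent developmental genes and over the inactive X chromosome. H3K27ac lies on active promoters and enhancers. CpG drives resting follicular B cells into growth and division, during which Polycomb marks are diluted by replication and written again, and enhancers of activation genes gain acetylation.

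The peak lists carried the B cell label. Of 25 B cell identity genes, 24 to 25 had an H3K27ac peak in each library, and their summed rank percentile was 2129 to 2235 in tat and 2146 to 2197 in mb1 libraries. Pax5, the factor that holds B cell identity, lay at 99.9, 99.9 and 99.9 in mb1 and 99.9, 99.7 and 99.5 in tat libraries. None of the 25 had an H3K27me3 peak in any trimmed list. Among markers of other cells, 2 of 18 T cell genes (Cd2 and Lck), 2 of 18 myeloid genes (Cd68, and Fcgr3 in 1 mb1 library), 1 of 10 NK genes and 1 of 10 erythroid genes had an H3K27ac peak. The summed percentiles were 80.6 to 164.9 in tat and 104.4 to 150.2 in mb1 libraries for T cell genes, and 38.1 to 70.8 against 68.1 to 153.2 for myeloid genes. Cd3e, Cd4, Csf1r, Lyz2, Ncr1 and Gata1 had no H3K27ac peak in these lists.

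Here the rank percentile of a gene is the place of the best peak touching the gene body extended by 2 kb at each end. It is 100 for the first peak of a list by total signal and 0 for no peak. Because deposited lists differed in length, each was first trimmed by total signal to the shortest of its mark, which left 3959 peaks for H3K27me3, 14705 for H2AK119Ub and 5421 for H3K27ac. A percentile of 0 therefore means no peak among the strongest, not absence of the mark.

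H3K27me3 domains were narrower and covered fewer bases in tat than in mb1 cells. Deposited lists held 15040, 8580, 7919 and 13162 H3K27me3 peaks in mb1 and 5764, 3959 and 5010 in tat libraries, 2.22-fold more in mb1. After trimming to the same number of peaks, they covered 104.2, 83.6, 76.3 and 123.6 Mb in mb1 and 49.7, 35.1 and 49.4 Mb in tat libraries. Every tat library lay below every mb1 library in both values. The median peak was 21423, 16697, 15632 and 25096 bp wide in mb1 and 9877, 6682 and 9747 bp in tat libraries, or 19712 bp ± 4384 (SD, n = 4) against 8769 bp ± 1808 (n = 3). The difference in median width was 2.24-fold and that in covered length 2.15-fold, or −1.11 ± 0.23 (SE) on the log2 scale. For all 3 values the exact two-sided permutation p was 0.0571, the smallest that 3 libraries against 4 can give, with a Benjamini-Hochberg value of 0.133 over 12 library comparisons. In the deposited lists the difference in median width was smaller, −0.37 in place of −1.16 on the log2 scale. The mean coverage within trimmed peaks moved with the system, at 8.56, 7.78, 7.99 and 10.8 in mb1 and 7.24, 5.78 and 7.08 in tat libraries, and its part in the difference was not tested.

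The H2AK119Ub lists were not shorter in tat cells, but their peaks were narrower. Deposited lists held 14705, 32455 and 20611 peaks in mb1 and 37118, 31660 and 33425 in tat libraries, with overlap between the groups (exact permutation p = 0.2). After trimming, median widths were 7232, 5621 and 7526 bp in mb1 and 5039, 4446 and 4603 bp in tat libraries, 1.44-fold wider in mb1. They covered 143.8, 105.8 and 147.1 Mb against 92.4, 82.8 and 85.5 Mb, a 1.51-fold difference with no overlap. In the deposited lists the covered length of tat and mb1 libraries overlapped, with a difference of −0.208 on the log2 scale (exact permutation p = 0.2). H3K27ac peaks followed the same order with a smaller step. Their lists held 9926, 8256 and 8566 peaks in mb1 and 7398, 5421 and 9916 in tat libraries, which overlapped (exact permutation p = 0.4). Median widths after trimming were 9890, 10564 and 10643 bp in mb1 and 8652, 7339 and 8240 bp in tat libraries, 1.29-fold wider in mb1 with no overlap. In the deposited lists that difference was −0.176 on the log2 scale, with overlap (exact permutation p = 0.4). H3K27ac peaks covered 75.9, 80.3 and 82.3 Mb in mb1 and 68.0, 55.2 and 62.2 Mb in tat libraries, 1.29-fold more in mb1. For width and covered length of both marks the exact permutation p was 0.1, the smallest that 3 against 3 can give, and the Benjamini-Hochberg value was 0.133.

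**Figure D1:**
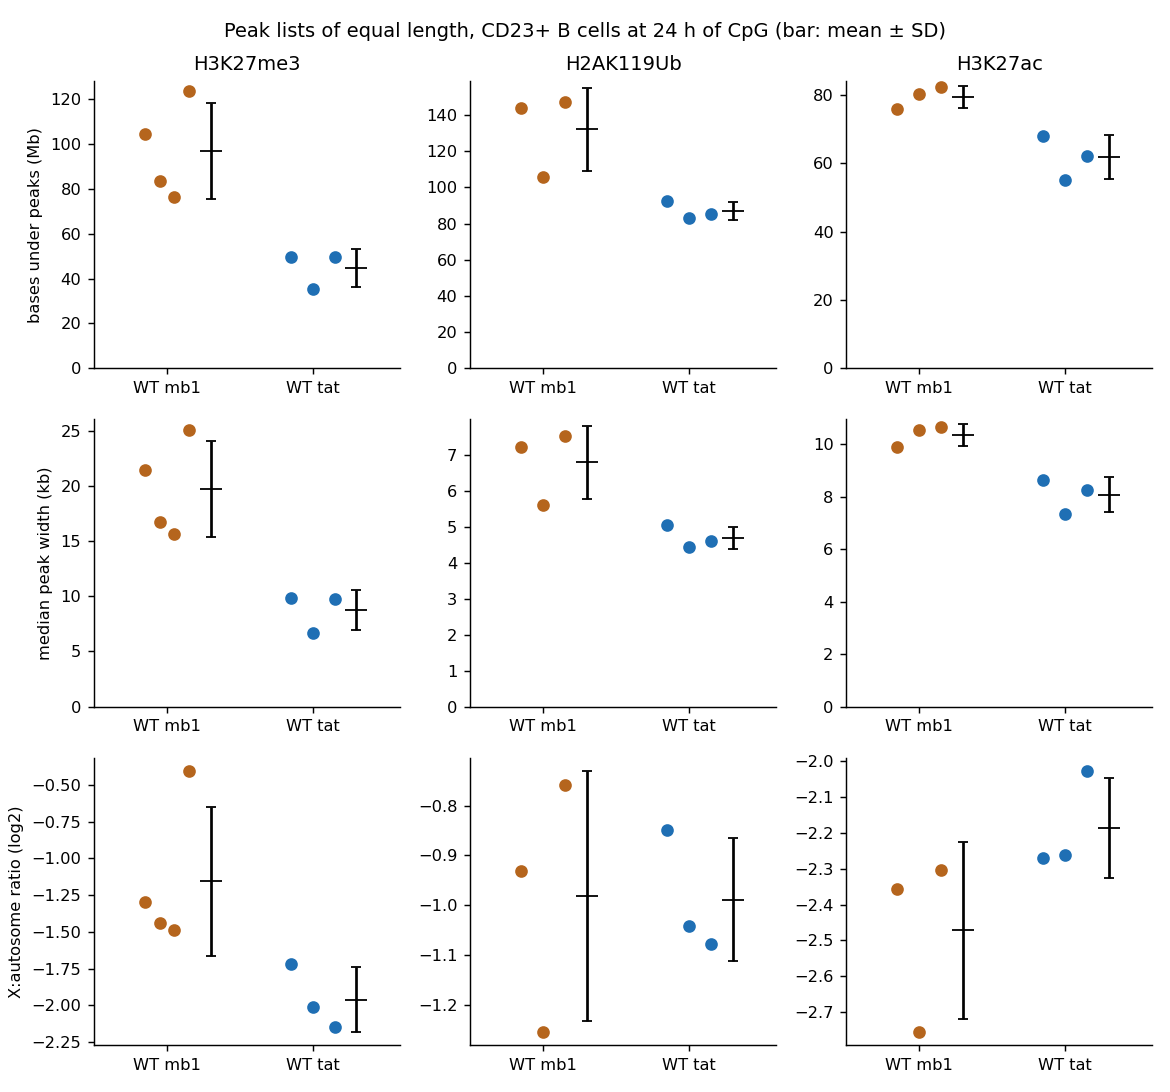
Each point is 1 library after trimming to equal numbers of peaks, with the group mean and SD beside it, for covered length in Mb (top), median peak width in kb (middle) and the log2 X:autosome ratio of covered shares (bottom). For all 3 marks the tat libraries lie below the mb1 libraries in covered length and width, by 2.15-fold, 1.51-fold and 1.29-fold in covered length for H3K27me3, H2AK119Ub and H3K27ac.

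The H3K27me3 peaks of tat cells lay mostly inside those of mb1 cells. Over the 12 pairs of a tat and an mb1 library, a median of 89.9% (84.7 to 92.4%) of the tat bases lay under an mb1 peak, while 42.8% (27.3 to 56.7%) of the mb1 bases lay under a tat peak. For H3K27ac the shares were 85.9% and 66.4%, and for H2AK119Ub 69.4% and 45.7%. Such nesting was not particular to the 2 systems. Of the H3K27me3 bases of mb1 replicates 2 and 3, 89.6% and 89.7% lay under mb1 replicate 4, with 61.0% and 55.8% in reverse. Of those of tat replicate 2, 82.9% lay under tat replicate 1, with 59.5% in reverse. The share of bases common to 2 lists (shared over covered by either) was 40.8% between systems for H3K27me3, beside 59.8% among mb1 and 53% among tat libraries. For H3K27ac it was 60.4% between systems, beside 64.5% and 62.2%. For H2AK119Ub it was 38.0% between systems, beside 43.1% and 35%. This common share cannot exceed the ratio of the shorter to the longer covered length, so it also carries the difference in covered length.

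The narrower peaks were also seen at the same genes. Among 2066 protein-coding genes with a trimmed H3K27me3 peak in all 7 libraries, the median peak width was 26.7, 22.4, 19.8 and 32.3 kb in mb1 and 13.2, 9.41 and 13 kb in tat libraries. At 1325 of them (64.1%) the peak was narrower in every tat library than in every mb1 library, and at 0 it was wider. Developmental Polycomb targets, the transcription factor genes that Polycomb keeps silent outside the embryo, had wide domains. The 66 of them with a peak in all libraries had medians of 39.9, 35.9, 34.3 and 42.1 kb in mb1 and 27.9, 21.5 and 29.6 kb in tat libraries, 1.61-fold against 1.99-fold over all 2066 genes. Their peak was narrower in every tat library at 35 (53%). That list was drawn up with results of these data known.

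Domains of single developmental genes ranged from nearly the same width to several-fold narrower in tat cells, and the examples here, other than Hoxd9, Neurog2 and Foxc1, were chosen after their values were seen. At the Hoxd cluster, which patterns limbs and the body axis, 1 mb1 peak of 183.0, 171.0, 141.7 and 213.2 kb spanned Hoxd13, Hoxd9 and Hoxd3. In tat libraries these genes lay under separate peaks, of 40.4, 41.1 and 37.5 kb at Hoxd13, 21.6, 21.5 and 21.6 kb at Hoxd9, and 70.6, 65.2 and 66.3 kb at Hoxd3. Hoxc4, Hoxc10 and Hoxc13 lay under peaks of equal width within each library, of 285 kb ± 47.8 (SD, n = 4) in mb1 and 195 kb ± 43.8 (n = 3) in tat cells. Sox1, a neural progenitor factor, had a domain of 33.5 kb ± 4.09 against 14.8 kb ± 0.69, and Gata4, a heart and endoderm factor, of 79.3 kb ± 18.7 against 46.8 kb ± 6.74. At Dlx5, a homeobox gene of bone and forebrain, widths were 39.6, 39.8, 39.6 and 40.2 kb in mb1 and 39.1, 38.0 and 38.7 kb in tat libraries, a step of about 1 kb without overlap. At Zic1, a cerebellar zinc finger factor, they were 66.7, 63.8, 63.9 and 67.7 kb and 64.7, 64.4 and 59.9 kb, and overlapped.

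For H2AK119Ub, 4645 coding genes had a peak in all 6 libraries, with a median ratio of widths of 1.6-fold, and 1512 (32.6%) were narrower in every tat library while 7 (0.151%) were wider. Of the developmental Polycomb targets, 25 of 53 (47.2%) were narrower in every tat library, and of the B cell identity genes 3 of 9 (33.3%). For H3K27ac, 3108 genes had one, with a ratio of 1.27-fold, and 716 (23.0%) were narrower while 15 (0.483%) were wider. The 24 B cell identity genes with a peak in every library had H3K27ac domains of 26.3, 28.1 and 32.2 kb in mb1 and 23.2, 20.5 and 27 kb in tat libraries as medians, and 2 (8.33%) were narrower in every tat library.

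**Figure D2:**
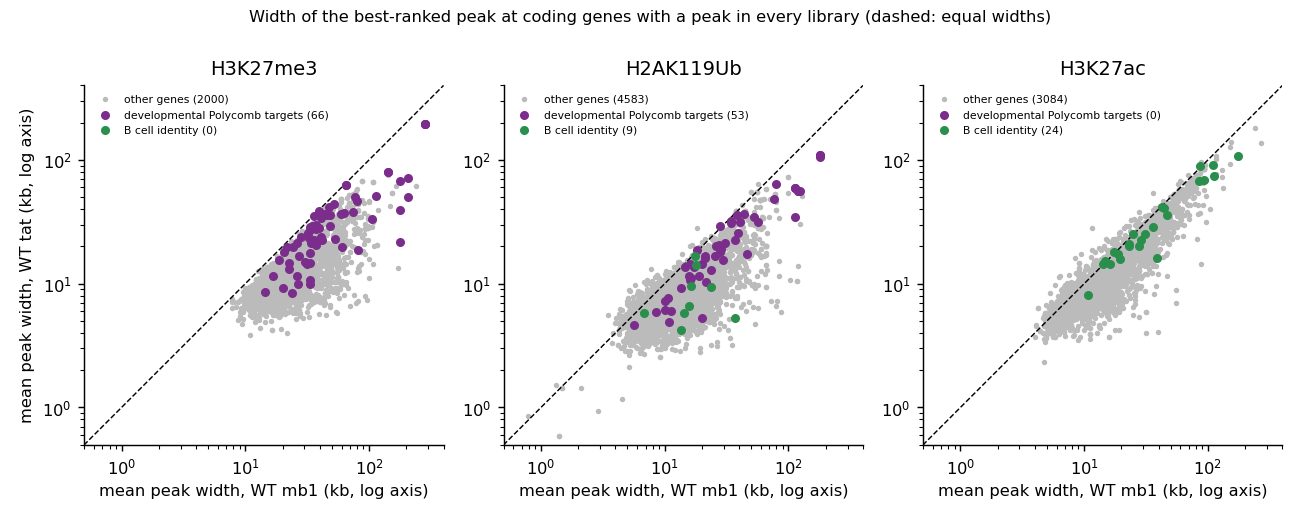
Each point is 1 protein-coding gene with a peak in every library of the mark, at the mean width of its best peak in mb1 (x axis) and tat (y axis) libraries, both in kb on log axes, with developmental Polycomb targets and B cell identity genes in colour. H3K27me3 points lie furthest below the line of equal widths, with a median ratio of 1.99-fold over 2066 genes against 1.27-fold over 3108 genes for H3K27ac.

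Ranks of 5495 genes with an H3K27me3 peak in at least 3 libraries were then compared with limma. In tat cells 452 genes (8.23%) ranked lower and 164 (2.98%) higher at a Benjamini-Hochberg adjusted p under 0.05, 11.2% in all (32.2% at an unadjusted p under 0.05), and the median difference over all genes was −5.61 percentile points. The split depended on how lists were made equal. It was 1222 higher and 76 lower when lists were trimmed to equal covered length, a choice made after seeing the data, where the median of all genes was 20.7. It was 0 higher and 3229 lower in the deposited lists, 2 and 96 by highest signal, 32 and 845 by the covered percent of the window, and 1232 and 1401 by the gene's share of autosomal peak signal. Without mb1 replicate 3 there were 949 calls, and without mb1 replicates 1 and 4 together, whose lists were the longest, 0 (716 at an unadjusted p under 0.05). In that last setting 287 of the 452 and all 164 could be tested, and all of these kept their direction. The rest of the 452 had a peak in fewer than 3 of the libraries left. Ranks therefore say which genes stood higher or lower within equally long lists, and not which gained or lost the mark.

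Many genes that ranked lower in tat cells lay under a wide mb1 domain whose place still held a narrower tat peak. At 281 of the 452 (62.2%), the best mb1 peak overlapped a peak of every tat library, and at 227 another gene under that mb1 peak had a peak in every tat library. The median width was 31.9 kb in mb1 and 11.3 kb at the same place in tat lists. No trimmed tat list had a peak in the window of 165 of them, and 116 of these had none in the deposited tat lists either. Those 165 reached the 3 libraries needed for the test only through mb1 libraries. Of the 164 that ranked higher in tat cells, all had a deposited peak in every mb1 library. In the trimmed mb1 lists 12 had none, and these were tested only through their tat peaks. With no gene filter, 313 of the 452 and 100 of the 164 were still called.

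Promoter sequences are shown for genes whose start lay under H3K27me3 in both systems and for genes whose start did so in mb1 lists only. The stretch from 250 bases before to 50 after the start was taken from RefSeq (GRCm38.p6, the sequence of mm10), which lists one or more for 26793 genes. The letters CG, which read the same on both strands, are in capitals because Polycomb domains are known to sit over promoters rich in them, and 94.7% of all 32619 listed promoters hold at least 1, with a median of 7. The promoter of Neurog2, a neurogenic factor, at chr3:127632886-127633185 (+ strand) and that of Hoxd9 at chr2:74697513-74697812 (+ strand) lay under a trimmed peak in 3 of 3 tat and 4 of 4 mb1 libraries. That of Foxc1, a mesenchyme factor, at chr13:31806396-31806695 (+ strand) and that of H2-M10.1, a class Ib histocompatibility gene, at chr17:36326101-36326400 (− strand) lay under one in 0 of 3 tat and 4 of 4 mb1 libraries.
Neurog2: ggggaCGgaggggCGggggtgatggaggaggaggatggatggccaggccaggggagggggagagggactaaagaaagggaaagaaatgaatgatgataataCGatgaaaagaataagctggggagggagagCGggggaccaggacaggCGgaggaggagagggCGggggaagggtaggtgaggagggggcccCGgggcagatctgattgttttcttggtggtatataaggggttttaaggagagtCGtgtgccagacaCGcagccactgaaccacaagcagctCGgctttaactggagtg
Hoxd9: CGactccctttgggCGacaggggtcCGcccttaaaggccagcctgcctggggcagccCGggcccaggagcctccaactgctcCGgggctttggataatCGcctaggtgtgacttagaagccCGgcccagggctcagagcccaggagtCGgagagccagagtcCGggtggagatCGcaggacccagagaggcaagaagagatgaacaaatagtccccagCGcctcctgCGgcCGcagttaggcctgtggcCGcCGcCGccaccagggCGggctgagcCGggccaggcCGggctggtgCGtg
Foxc1: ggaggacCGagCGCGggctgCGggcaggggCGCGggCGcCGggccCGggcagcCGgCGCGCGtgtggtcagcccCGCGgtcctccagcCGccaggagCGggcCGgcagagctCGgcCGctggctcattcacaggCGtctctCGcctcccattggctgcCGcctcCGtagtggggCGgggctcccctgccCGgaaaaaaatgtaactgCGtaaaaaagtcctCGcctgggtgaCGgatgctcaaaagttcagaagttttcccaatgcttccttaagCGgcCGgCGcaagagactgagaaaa
H2-M10.1: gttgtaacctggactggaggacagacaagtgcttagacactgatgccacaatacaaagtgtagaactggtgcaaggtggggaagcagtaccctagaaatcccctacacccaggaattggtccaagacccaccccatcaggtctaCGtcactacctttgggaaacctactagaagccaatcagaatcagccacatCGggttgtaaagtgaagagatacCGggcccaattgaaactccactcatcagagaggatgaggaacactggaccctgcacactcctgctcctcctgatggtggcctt
The Neurog2 and Hoxd9 promoters hold 10 and 20 CG, and the other pair 32 (Foxc1) and 3 (H2-M10.1). Over the listed genes, the median was 15 CG for those tested, 12 for the 348 that ranked lower and 15 for the 140 that ranked higher in tat cells. Of the 348, the promoter lay under a peak in all 7 libraries for 54, and under one in every mb1 but no tat library for 82.

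Several of the genes with the smallest p among those ranked lower were neighbours of a gene that kept its peak in tat cells. Cd207, the langerin gene of Langerhans cells (chr6:83671207-83677857), lay at 98.7, 98.8, 99.0 and 98.8 in mb1 and at 0 in all 3 tat libraries, with no deposited tat peak. The difference was −98.8 ± 6.76 percentile points (SE, adjusted p = 0.00111 by limma), in a test that Cd207 entered only through its mb1 peaks. The same mb1 peak, 50.1 to 63.9 kb wide, also covered Vax2, a ventral eye factor 33.4 kb away, and Vax2 stayed at 99.2 on average in tat cells. Hlcs, the enzyme that attaches biotin to carboxylases, lay at 98.4, 98.7, 99.1 and 98.5 against 0, 0 and 3.84. Its mb1 peak was shared with Sim2, a midline factor 2.3 kb away, which had a tat mean of 97.3. Jhy lay at 96.3, 94.2, 95.6 and 95.3 against 1.94, 0 and 0, and Bsx, a hypothalamic homeobox gene 15.9 kb away under the same mb1 peak, had a tat mean of 93.6. Ccdc166 was at 91.6 to 96.2 in mb1 and 0 in tat libraries, beside Fam83h at a tat mean of 93.9. These neighbours are outside the naming rule and were chosen by their place under the same peak. All of these genes separated fully between the groups, as did 849 of the 5495 tested (15.5%) in this direction.

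Other genes of this group had no protein-coding neighbour under the same mb1 peak that kept a trimmed peak in every tat library. H2-M10.1 lay at 95.5, 96.6, 94.1 and 95.0 in mb1, under peaks of 104.5, 79.9, 63.1 and 100.8 kb, and at 0 in every tat library, where 1 deposited list had a peak. Zfp322a, a zinc finger gene, lay at 93.1 to 95.9 against 0 and Slc4a1, the anion exchanger of red cells, at 92.1 to 95.4 against 0, with a deposited tat peak in 0 and 2 of 3 lists. The non-coding 4930586N03Rik under the same mb1 peak as Zfp322a had a tat mean of 96.2, and Bloodlinc beside Slc4a1 one of 45.8. Krt18, a keratin of simple epithelia, kept a peak over its promoter in all 7 libraries. It lay at 95.5, 92.2, 93.6 and 94.7 in mb1 and 59.0, 55.4 and 57.9 in tat libraries, under peaks of 73.6, 50.9, 51.7 and 75.7 kb against 9.29, 6.70 and 8.34 kb (difference −36.6 ± 2.50, adjusted p = 0.00111 by limma). Its share of autosomal peak signal differed by 0.03 on the log2 scale (adjusted p = 0.93 by limma), and by highest signal its rank difference was −5.95 (adjusted p = 0.86).

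Of the 10 genes with the smallest p among those that ranked higher in tat cells, 7 had a narrow peak that lay at or near the end of the trimmed mb1 lists. Ddx25, a testis RNA helicase, lay at 0 in all mb1 and at 45.3, 49.5 and 44.3 in tat libraries, under peaks of 6.64 to 8.62 kb, and had a deposited peak in 4 of 4 mb1 lists (difference 46.4 ± 5.30, adjusted p = 0.00369 by limma). Ttc39b lay at 0 against 32.2 to 41.1. Eef1akmt3, Skap2, an adaptor of leukocyte adhesion, and Rgs16, a brake on G protein signalling, lay at 0 to 17.2 against 42.4 to 59.2. Col9a2, a cartilage collagen, and Eif4g1, a translation initiation factor, lay at 0 to 9.45 against 39.9 to 49.8. In the deposited lists the difference of Ttc39b was 7.35, but that of Ddx25, Eef1akmt3, Skap2, Rgs16, Col9a2 and Eif4g1 was −0.40 to −12.5 points, and none of these passed the test (adjusted p 0.274 to 0.973 by limma).

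The other 3 had a strong peak in both systems. Neurog2 lay at 95.0, 96.2, 95.6 and 95.5 in mb1 and 98.4, 98.8 and 98.2 in tat libraries. Its domain was 36.5, 40.1, 28.5 and 37.9 kb wide against 35.3, 33.0 and 37.9 kb, so the widths overlapped while the ranks did not (difference 2.88 ± 0.47, adjusted p = 0.0106 by limma). Ranks separated fully in this direction at 630 of the 5495 genes tested (11.5%). By highest signal the Neurog2 difference was −1.18. Sfmbt2, a Polycomb-associated gene, lay at 81.8, 81.4, 81.0 and 78.4 against 90.0, 91.9 and 89.3. Elobl, an elongin B-like gene, lay at 88.7 to 90.3 against 93.8 to 95.5. Sfmbt2 and Elobl were lower in tat cells by 0.48 and 0.35 points in the deposited lists.

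**Figure D3:**
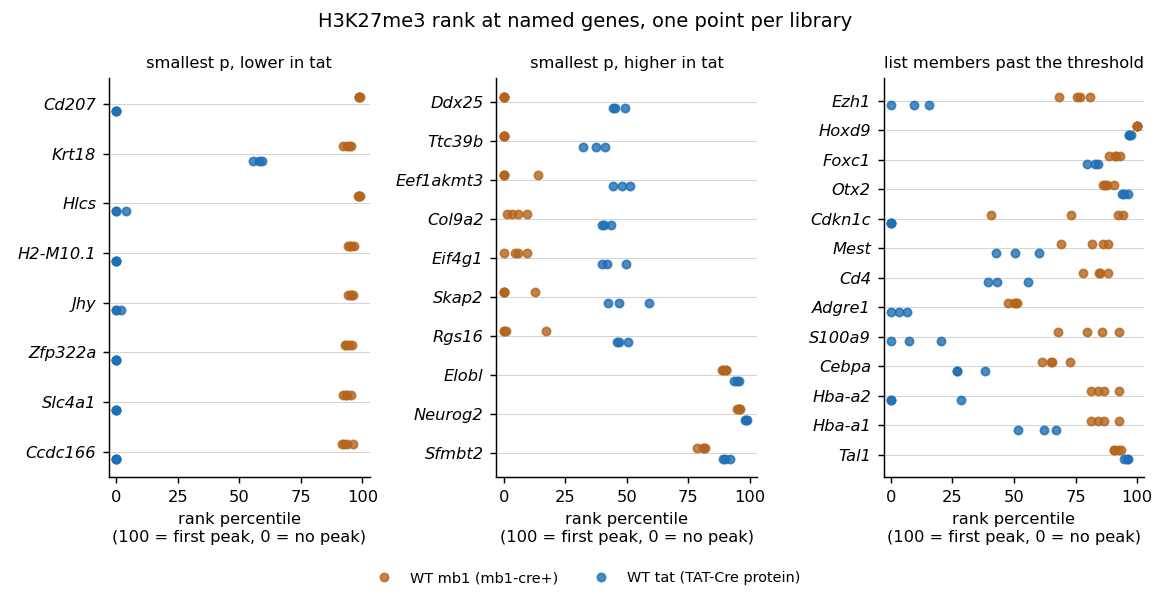
Each point is the H3K27me3 rank percentile of a gene in 1 library (x axis, 100 for the first peak and 0 for none), for the genes with the smallest p in each direction and for list members past the threshold. Cd207 sits at 98.7 to 99.0 in mb1 and 0 in tat libraries, while Neurog2 sits at 95.0 to 96.2 and 98.2 to 98.8.

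Among developmental Polycomb targets all 68 were tested, 66 to 68 had a trimmed peak in each tat library and 68 in each mb1 library, and the median difference was 0.73 percentile points, against −5.61 over all genes. Of the 68, 4 ranked higher, Neurog2, Otx2, Foxa1 and Olig2, of which Foxa1 and Olig2 are outside the naming rule. Ranked lower were 3, Hoxd9 and Foxc1 among them. Over all genes tested 2.98% ranked higher and 8.23% lower. Otx2, a head and eye factor, lay at 88.0, 86.9, 90.7 and 86.4 in mb1 and 94.7, 96.4 and 93.7 in tat libraries (difference 6.98, adjusted p = 0.0173 by limma, and 0.0562 without tat replicate 2). Hoxd9 lay at 99.9 in each mb1 library against 96.7, 97.7 and 96.7 (−2.84 ± 0.39, adjusted p = 0.00572 by limma). Its share of peak signal was higher in tat cells, by 1.41 on the log2 scale (adjusted p = 0.00234 by limma), opposite to its rank. Foxc1 lay at 90.9, 93.0, 91.4 and 88.7 against 79.6, 84.0 and 83.1, and its domain was 30.8, 28.6, 18.8 and 28.1 kb against 9.12, 10.7 and 9.76 kb (−8.77 ± 1.62, adjusted p = 0.0169 by limma). With lists of equal covered length its difference was 14.4 and by share of signal 0.66 on the log2 scale. Neither of these passed the test (adjusted p 0.407 and 0.0778 by limma).

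Among the 27 Polycomb and chromatin regulators, 6 were tested and 1 ranked lower (8.23% of all genes did), Ezh1, a catalytic subunit of Polycomb repressive complex 2. It lay at 75.5, 76.7, 80.8 and 68.5 in mb1 and 9.17, 0 and 15.5 in tat libraries (−67.1 ± 8.23, adjusted p = 0.00441 by limma). The Ezh1 promoter lay under a trimmed peak in 1 mb1 and 0 tat libraries. Ramp2, 19.9 kb away under the same mb1 peak and outside the naming rule, had a tat mean of 55.6. The median of the 6 was −31.2. Of the imprinted domains 2 of 8 tested ranked lower, beside the same 8.23% of all genes. Cdkn1c, a maternally expressed cell cycle inhibitor, lay at 94.3, 73.0, 40.7 and 92.2 against 0 in all tat libraries (adjusted p = 0.0176 by limma, and 0.0533 without tat replicate 2). Mest, expressed from the paternal allele, lay at 88.2, 81.7, 69.0 and 86.1 against 60.3, 42.7 and 50.4 (adjusted p = 0.0398 by limma). The Mest call was lost without mb1 replicate 1, 2 or 4 or tat replicate 2 or 3 (adjusted p 0.0656 to 0.119), and its difference turned positive by share of signal (0.99 on the log2 scale) and at equal covered length (6.13). In the X inactivation centre 1 of 4 tested ranked lower.

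Some marker genes of other blood lineages ranked lower, beside 8.23% of all genes tested. Of 7 myeloid markers tested 3 did, with a median of −35.5 for the 7 against −5.61 over all genes. S100a9, a neutrophil calcium-binding protein, lay at 79.6, 85.9, 68.1 and 92.8 against 7.45, 20.3 and 0 (adjusted p = 0.00572 by limma). Adgre1, the macrophage marker F4/80, lay at 51.4, 49.9, 50.8 and 47.6 against 0, 3.11 and 6.47 (adjusted p = 0.00572 by limma), but differed by 0.77 the other way by highest signal. Cebpa, a myeloid master regulator, lay at 72.8, 65.6, 61.2 and 65.2 against 38.3, 27 and 26.9 (adjusted p = 0.0337 by limma, and 0.0504 to 0.078 without mb1 replicate 1, 2 or 4 or tat replicate 2 or 3). Its difference was 0.71 by share of signal, on the log2 scale. Of 5 T cell markers tested 1, Cd4, ranked lower, at 84.8, 88.4, 84.5 and 78.0 against 42.9, 55.7 and 39.4 (adjusted p = 0.0106 by limma). Of 4 erythroid markers tested 2 ranked lower and 1 higher (2.98% of all genes ranked higher). Hba-a2 and Hba-a1, near-identical alpha-globin copies whose reads may have been split by the alignment, ranked lower. Hba-a2 lay at 81.4 to 92.6 against 0, 0 and 28.6 (adjusted p = 0.00551 by limma). Hba-a1 lay at 81.4 to 92.6 against 67.2, 62.1 and 51.8 (adjusted p = 0.0186 by limma, and 0.0504 and 0.0618 without mb1 replicates 2 and 4). Tal1, an erythroid and stem cell factor, ranked higher and lay at 90.5, 93.7, 92.1 and 90.8 against 95.7, 96.5 and 94.6 (difference 3.85, adjusted p = 0.0482 by limma). That call was lost without any 1 library except mb1 replicate 2 (adjusted p 0.0542 to 0.131), and the direction turned in deposited lists (−0.54) and by highest signal (−0.67).

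The remaining lists gave no H3K27me3 call. These were CpG and NF-kB response, cell cycle and ribosome biogenesis, plasma cell, p53 targets, stress, interferon response, escape genes, X-linked immune genes and NK markers, with 1 to 3 members tested in each, and germinal centre, broadly transcribed X genes, housekeeping and B cell identity genes with 0 tested. Prdm1, the plasma cell regulator Blimp-1, lay at 32.9, 25.9, 38.7 and 18.2 in mb1 and 54.2, 66.2 and 58.7 in tat libraries (adjusted p = 0.0622 by limma, 0.0296 without mb1 replicate 3). Its ranks did not overlap, as held for 630 of 5495 genes (11.5%) in this direction. Cd86, a costimulatory molecule induced by CpG, lay at 0, 40.5, 43.5 and 60.6 against 0 in all tat libraries (adjusted p = 0.122 by limma, 0.0217 without mb1 replicate 1).

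For H3K27ac, 5871 genes were tested, and 43 (0.732%) ranked lower and 1 (0.017%) higher in tat cells, 0.749% in all, with a median difference of −0.97. At an unadjusted p under 0.05 there were 596 (10.2%), and 578 (9.85%) separated fully with tat below mb1. Leaving out any 1 mb1 library gave 0 calls (381 to 430 genes at an unadjusted p under 0.05), and leaving out a tat library gave 31 to 55. A gene with a peak in the mb1 libraries only is not tested once 1 of them is left out, since 3 libraries with a peak are needed. Deposited lists and ranks by highest signal also gave 0 calls (691 and 424 at an unadjusted p under 0.05). At 34 of the 43 (79.1%) the mb1 peak overlapped a peak of every tat library, 17.2 kb wide against 8.11 kb as medians. No trimmed tat list had a peak in the window of 31 of the 43, which were tested only through their mb1 peaks. With no gene filter, 22 of the 43 were still called.

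Most of the H3K27ac genes with the smallest p were also neighbours of a gene that kept its peak. Fbxl18, an F-box protein gene, lay at 86.2, 84.4 and 85.9 in mb1 and at 0 in all tat libraries (−85.5 ± 7.12, adjusted p = 0.00686 by limma). Its mb1 peak of 15.2 to 19.4 kb also covered Actb, 6.4 kb away, which had a tat mean of 87.3. Amt, of the glycine cleavage system, lay at 95.0, 85.8 and 83.5 against 0, beside Rhoa, a cytoskeletal GTPase with a tat mean of 86.3. Tbc1d2 lay at 98.1 to 98.5 against 0, beside Coro2a at a tat mean of 97.5. Coro1c, an actin regulator, lay at 83.8 to 86.2 against 0, beside Selplg, the P-selectin ligand, at 76.5. Ak7, Ttc21a and Dpm1 lay at 70.9 to 82.8 in mb1 and 0 in tat libraries. The neighbours named here were chosen by their place under the same peak. Atn1, a nuclear receptor corepressor, kept a peak and lay at 92.8, 94.6 and 93.2 against 58.1, 54.2 and 56.5 (−37.2 ± 2.89, adjusted p = 0.00607 by limma, 0.242 to 0.306 without 1 mb1 library). By covered percent and by share of signal the difference of Atn1 was 0.09 and 0.11.

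Of the 35 genes that ranked lower for H3K27ac and have a listed promoter, 9 had it under a peak in every mb1 and no tat library. Of the genes named here these were Ankrd13d and Ddah2. Ankrd13d, a ubiquitin-binding protein gene, lay at 93.5, 92.9 and 92.1 against 0 (−92.9 ± 7.08, adjusted p = 0.00607 by limma), and 1 deposited tat list had a peak. Ddah2, of nitric oxide metabolism, lay at 86.2, 82.5 and 85.1 against 0 (adjusted p = 0.00686 by limma), beside Clic1, 0.3 kb away, at a tat mean of 83.3. Both promoters are shown with CG in capitals, Ankrd13d at chr19:4283088-4283387 (− strand, 25 CG) and Ddah2 at chr17:35058785-35059084 (+ strand, 12 CG), beside a median of 21 CG over genes tested for H3K27ac and 17 over the 35 listed genes that ranked lower.
Ankrd13d: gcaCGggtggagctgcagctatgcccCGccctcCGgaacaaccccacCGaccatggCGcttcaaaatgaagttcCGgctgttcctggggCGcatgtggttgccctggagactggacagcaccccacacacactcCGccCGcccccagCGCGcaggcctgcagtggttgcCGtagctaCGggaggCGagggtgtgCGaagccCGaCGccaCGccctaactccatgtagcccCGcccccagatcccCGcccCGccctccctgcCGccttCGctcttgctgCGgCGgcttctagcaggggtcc
Ddah2: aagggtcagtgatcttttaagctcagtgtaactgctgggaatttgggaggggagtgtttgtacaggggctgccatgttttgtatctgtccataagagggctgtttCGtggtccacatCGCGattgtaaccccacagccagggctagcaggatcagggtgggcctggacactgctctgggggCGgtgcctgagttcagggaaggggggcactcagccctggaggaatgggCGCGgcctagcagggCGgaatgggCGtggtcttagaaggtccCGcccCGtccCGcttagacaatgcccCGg
Grk2, a kinase of G protein-coupled receptors 1.9 kb from Ankrd13d under the same mb1 peak, had a tat mean of 92.1.

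Nutm1, a testis gene, was the 1 gene that ranked higher for H3K27ac. It lay at 0 in all mb1 and at 96.9, 94.9 and 95.9 in tat libraries, under peaks of 59.1, 34.1 and 32.5 kb that it shared with Nop10, a ribonucleoprotein gene 2.6 kb away (95.9 ± 7.04, adjusted p = 0.00607 by limma). Nop10 itself lay at 96.7, 94.3 and 96.1 in mb1 and 96.9, 94.9 and 95.9 in tat libraries, which overlapped. The call was lost without mb1 replicate 1, 2 or 3 (adjusted p 0.157 to 0.211), and Nutm1 entered the test only through its tat peaks. Next in order were H2-DMa, of antigen loading, at 72.1, 75.1 and 72.1 against 90.7, 84.7 and 92.7 (adjusted p = 0.0747 by limma), and Ctso, a cathepsin, at 66.9 to 71.9 against 82.4 to 89.3 (adjusted p = 0.131), neither of which passed.

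Of 25 B cell identity genes 24 were tested for H3K27ac and 0 passed the test, where 0.749% of all genes tested did, so that the count says little about these genes. Their median difference was 0.65, against −0.97 over all genes. Cd79a, the mb1 gene into which the Cre transgene is inserted, lay at 93.1, 93.0 and 93.8 in mb1 and 94.2, 95.2 and 95.3 in tat libraries, without overlap (1.62 ± 0.61, adjusted p = 0.441 by limma), as did 458 of 5871 genes (7.8%) in this direction. Its partner Cd79b lay at 95.0, 94.0 and 94.4 against 95.9, 96.2 and 96.6 (adjusted p = 0.323 by limma), and at −1.0 by highest signal. Cd79a had no H3K27me3 peak, and its H2AK119Ub ranks of 1.43, 35 and 11.1 against 16.5, 45.4 and 0 overlapped. The CpG and NF-kB response list had 28 members tested, 0 called (beside the same 0.749% of all genes) and a median of −2.0. Bcl2l1, a survival factor, was its smallest p, at 85.9, 76.4 and 70.0 against 41.6, 32.7 and 34.7 (adjusted p = 0.0978 by limma), and differed by 2.23 the other way by highest signal. Myc, which drives growth after CpG, lay at 76.6, 74.1 and 71.5 against 73.1, 77.1 and 62.4 and overlapped (adjusted p = 0.827 by limma). Irf4, of plasma cell fate, lay at 93.1, 92.3 and 92.5 against 94.4, 94.1 and 96.4 (adjusted p = 0.441 by limma). Jarid2, a cofactor of Polycomb repressive complex 2, lay at 97.5, 98.0 and 97.7 against 94.8, 95.0 and 93.7, under peaks of 71.9, 66.3 and 74.0 kb against 37.3, 35.5 and 27.6 kb (adjusted p = 0.0754 by limma). Myc and Pax5 are outside the naming rule and were chosen as known genes of these cells.

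**Figure D4:**
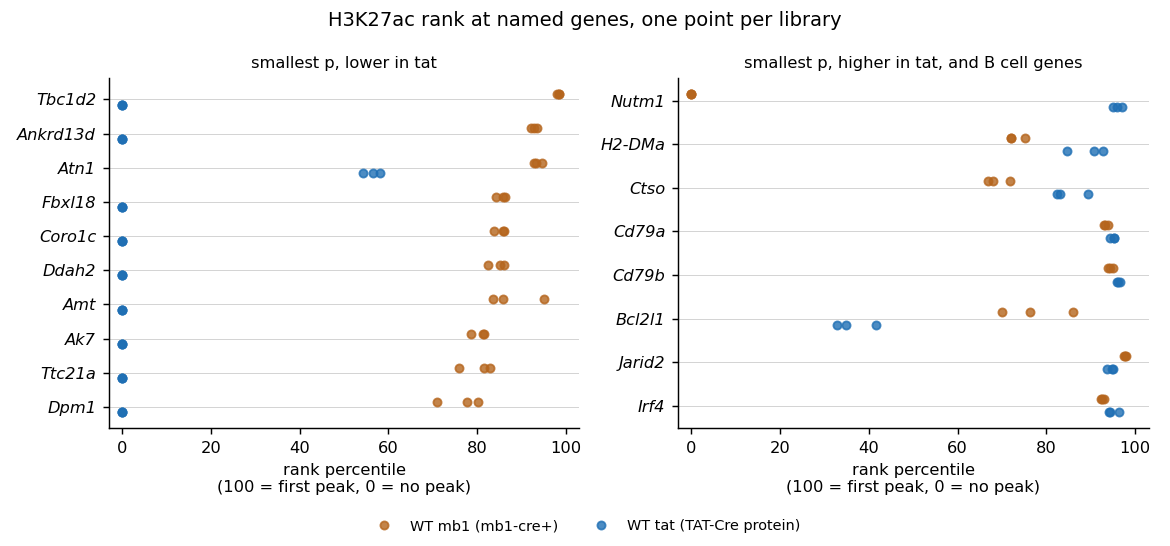
Each point is the H3K27ac rank percentile of a gene in 1 library (x axis, 100 for the first peak and 0 for none), for the genes with the smallest p in each direction and for B cell genes of the lists. The genes shown that ranked lower sit at 0 in tat libraries except Atn1, and Cd79a sits at 93.0 to 93.8 in mb1 and 94.2 to 95.3 in tat libraries.

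For H2AK119Ub, 12454 genes were tested and limma called 0 (0.0%), with 887 (7.12%) at an unadjusted p under 0.05 and a median difference of −4.55. On the log2 rank scale 12 genes were called, all lower, and without limma's trend 65 were, 60 of them lower. A count of 0 is no sign of equal ranks, since the same test also found no shifted gene in simulated H2AK119Ub lists. The smallest p values included those of immune genes. Lta and Tnf, neighbouring cytokine genes, shared mb1 peaks of 36.2, 22.3 and 22.5 kb. Lta lay at 98.2, 97.7 and 96.9 in mb1 and 84.6, 83.9 and 81.5 in tat libraries, without overlap (−14.3 ± 1.82, adjusted p = 0.294 by limma). Jak3, a cytokine receptor kinase, lay at 97.8, 97.6 and 97.0 against 82.9, 77.6 and 82.3, and Pafah1b3 at 97.1, 98.5 and 98.1 against 80.5, 74.6 and 73.6 (both adjusted p = 0.294 by limma). Cd37, a B cell tetraspanin, lay at 87.9, 94.7 and 99.8 against 73.8, 75.6 and 70.0 (adjusted p = 0.365 by limma). Such separation with tat below held for 1247 of 12454 genes (10.0%). Spint3 and Ephb6, at 0 in mb1 and 57.4 to 89.4 in tat libraries, had the smallest p in the other direction (adjusted p = 0.365 by limma). Both entered the test only through their tat peaks. Deposited mb1 lists held a peak at Spint3 in 1 library and at Ephb6 in 2. The share of all genes that separated in this direction is not given here. Of 64 developmental Polycomb targets tested the median was −0.05, and of 16 B cell identity genes −14.0.

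On chromosome X the H3K27me3 lists of tat cells, trimmed by total signal, held less than those of mb1 cells, beyond the narrowing on autosomes. The X:autosome ratio, the log2 of the covered share of X over that of the 19 autosomes, was −1.30, −1.44, −1.49 and −0.40 in mb1 and −1.72, −2.01 and −2.15 in tat libraries, a difference of −0.80 ± 0.28 (SE) with no overlap. The exact permutation p was 0.0571 (Benjamini-Hochberg value 0.133). Without mb1 replicate 4, which lay far above the others, the difference was −0.55, and in lists trimmed by highest signal −0.33, with overlap. The groups also overlapped at equal covered length, where mb1 replicate 3 lay at −2.02 beside −1.98, −2.01 and −2.44 in tat libraries. At 0 h, in lists trimmed to the shortest of both times, they overlapped too, with a difference of −0.26. H3K27me3 peaks covered 0.464% of X in tat and 1.89% in mb1 cells. The share of X among covered bases differed by −0.78 on the log2 scale, while that of the autosomes differed by −0.17 to 0.19. For H2AK119Ub the ratio was −0.93, −1.25 and −0.76 in mb1 and −0.85, −1.04 and −1.08 in tat libraries, overlapping, with a difference of −0.01 ± 0.16 (exact permutation p = 1) whose sign turned in 6 settings. For H3K27ac it was −2.36, −2.75 and −2.30 against −2.27, −2.26 and −2.03, higher in every tat library by 0.28 ± 0.16 (exact permutation p = 0.1, Benjamini-Hochberg value 0.133), and by 0.14 without mb1 replicate 2.

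Along X, H3K27me3 coverage was lower in every tat than in every mb1 library in 11 of 25 windows of 5 Mb with a peak (44.0%), and in 369 of 480 autosomal windows (76.9%). The window from 100 to 105 Mb, which holds Xist, had 17.1% of its length covered in mb1 cells against 3.46% in tat cells, and that from 90 to 95 Mb had 9.71% against 3.78%. For H2AK119Ub the Xist window had 22.0% against 11.2%, and 5 of 27 X windows (18.5%) against 257 of 486 autosomal ones (52.9%) were lower in every tat library. For H3K27ac 0 of 26 X windows (0.0%) and 244 of 469 autosomal ones (52.0%) were.

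**Figure D5:**
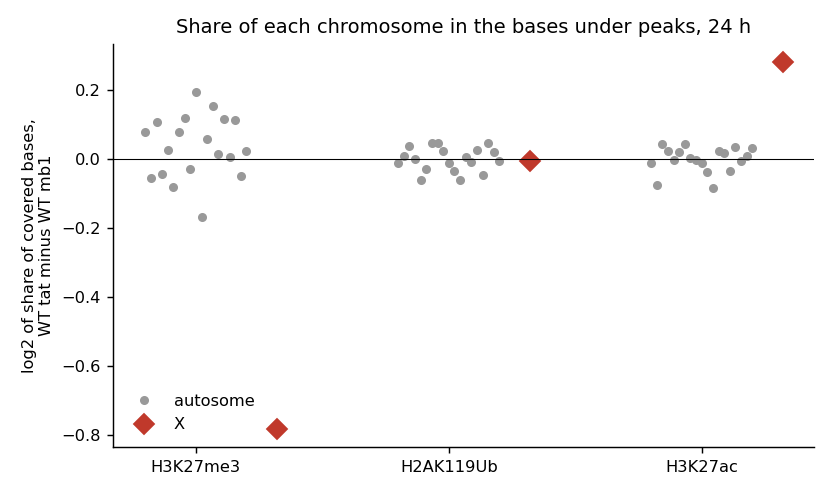
Each point is 1 chromosome, placed at the log2 of its share among the bases under peaks in tat minus that in mb1 cells (means of libraries, lists of equal length), with X as a diamond. X lies at −0.78 for H3K27me3, below the autosomes at −0.17 to 0.19, and at 0.28 for H3K27ac.

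Cells taken at 0 h, before any CpG and, in the tat system, before TAT-Cre, give the systems' difference without either agent. In lists trimmed to the shortest of both times, H3K27me3 covered 34.7 to 55.6 Mb in tat and 58.5 to 81.8 Mb in mb1 libraries at 0 h, again without overlap, and H3K27ac 20.0 to 31.1 Mb against 33.0 to 39.8 Mb. H2AK119Ub overlapped, at 31.7 to 40.6 Mb against 39.3 to 45.6 Mb. The differences at 24 h and 0 h were −1.09 and −0.49 on the log2 scale for H3K27me3, −0.67 and −0.16 for H2AK119Ub and −0.37 and −0.56 for H3K27ac. No difference between times had an exact permutation p under 0.05 in 9 tests of covered length, width and X:autosome ratio (0.06 to 0.625, with Benjamini-Hochberg values of 0.49 to 0.625). Of the autosomal genes that ranked lower for H3K27me3 at 24 h, 357 of 443 tested at 0 h (80.6%) were lower there too, beside 65.3% of all genes, and 55 were called lower (2.39% of all genes were). At 0 h Foxc1 differed by −11.7 (adjusted p = 0.0242 by limma), Cd4 by −54.5 (0.0204), S100a9 by −64.8 (0.00653) and Cebpa by −45.0 (0.026). Genes with the smallest p at 24 h did not pass at 0 h. Cd207 differed by −12.1 (0.887), Krt18 by −16.4 (0.749), Hlcs by −54.8 (0.189), Jhy by −59.6 (0.106) and Zfp322a by −38.9 (0.511). H2-M10.1 differed by 11.9 the other way (0.863). The 0 h differences come from a fit to the WT libraries of both times. Its gene filter and spread thus also rest on the 24 h libraries by which the genes were chosen. The system difference itself changed between the times at 21 genes for H3K27me3 (0.415%), 59 for H2AK119Ub (1.39%) and 40 for H3K27ac (1.72%) by limma's interaction term.

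Xist-deleted cells at 24 h, which share no library with the wild-type comparison, showed the same order of the systems in H3K27me3 and H3K27ac covered length and width, but not in the other library values. Lists of Xist fl/fl cells given TAT-Cre and of Xist fl/fl ; mb1-cre+ cells covered 38.4 and 95.7 Mb for H3K27me3, with median widths of 7885 and 19431 bp, and 37.8 and 66.8 Mb for H3K27ac, with median widths of 7752 and 13502 bp, all without overlap. H2AK119Ub covered 79.0 and 77.3 Mb with median widths of 6877 and 6454 bp, both overlapping, and no gene was called for it (0.0%). The X:autosome ratio of H3K27me3 was −2.72 in deleted tat and −3.16 in deleted mb1 cells, overlapping and opposite in order to the wild type. That of H2AK119Ub was −2.74 against −3.96 without overlap, and that of H3K27ac −2.48 against −2.26, overlapping and again opposite in order to the wild type. Of the genes that ranked lower for H3K27me3 in WT tat cells, 423 of 430 autosomal ones tested (98.4%) were lower in the deleted tat cells, beside 71.6% of all genes, and 173 were called lower (15.6% of all genes were, 3.74% higher and 19.4% in either direction). Of those that ranked higher, 117 of 156 (75%, beside 28.4% of all) were higher, 55 were called higher and 4 lower. Ezh1 was at −75.1 (adjusted p = 0.00067 by limma), H2-M10.1 at −77.1 (0.0035) and Jhy at −82.9 (0.0017) there. Cd207 at −65.6, Hlcs at −55.2, Krt18 at −24.9, Zfp322a at −66.5, Slc4a1 at −63.8 and Ccdc166 at −19.7 were also lower. None of these passed the test (adjusted p 0.0644 to 0.164 by limma). Of the genes that ranked higher, Ddx25 was at 39.7 (0.00491), Col9a2 at 39.7 (0.0121), Elobl at 6.81 (0.00307) and Sfmbt2 at 8.68 (0.0286). Eef1akmt3 at 20.8 (0.275), Neurog2 at −0.79 (0.798) and Otx2 at −2.14 (0.281) did not pass. For H3K27ac, 20 of 23 genes tested (87.0%, beside 59.6% of all) were lower, and 5 were called lower (6.0% of all genes were), Amt at −81.6 and Dpm1 at −66.4 among them (adjusted p = 0.00636 each by limma). Nutm1, the 1 gene that ranked higher for H3K27ac in WT tat cells, was at −33.3 there, the opposite direction, and was not called.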

How the data were processed

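CUT&RUN libraries of H3K27me3, H2AK119Ub and H3K27ac from splenic CD23+ B cells were deposited as peak lists, 1 per sample, with 6 columns. The authors' deposited values are SEACR signal per peak: column 4 holds total signal and column 5 the highest signal, in arbitrary units. Per the submitters' processing notes, the tools were Trimmomatic 0.32, Bowtie2 2.3.4.1, Picard and deepTools 3.5.1, with the build mm10. The sources used here do not give the SEACR version, its control and threshold, any scaling to the yeast spike-in, or the read depth per sample. The counting precision of a value is therefore unknown.

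Lists were kept to chromosomes 1 to 19 and X and trimmed by column 4 to the shortest list of the mark. Each of 34324 genes (RefSeq, GRCm38.p6) with 2 kb on either side was given the rank percentile of its best peak, 0 for none. Genes under a peak of 3 or more libraries were tested with limma 3.58.1 (R 4.3.3, intensity trend in the empirical Bayes step, Benjamini-Hochberg adjusted p under 0.05, unpaired), a test also run on simulated lists, where it found part of the shifted genes for H3K27me3 and H3K27ac and none for H2AK119Ub. Library values were compared with two-sided exact permutation tests (Python 3.11.15). Groups follow the sample titles. The share of autosomal peak signal is the log2 of a gene's ppm of that signal. Replicate numbers did not pair the samples. The members, the 20 gene lists (431 of 439 genes matched) and the tests were chosen with earlier results of these data known. The genes named were the 10 protein-coding ones of smallest p in each direction, at least 100 kb apart, Cd79a in every mark, and, per list, up to 4 members past the threshold or else the member of smallest p. Some genes that this rule selects are not reported here. The alternatives tried were untrimmed lists, half-length lists, lists of equal covered length, ranks by highest signal, a log2 scale, covered percent, signal share, a 500 bp overlap, no gene filter, no trend, a replicate block, promoter windows, and leaving out libraries. Trimming by number, not by signal, means that ranks compare genes within a list and cannot show a gain or loss common to all of them.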

Additional observations from a re-analysis of the deposited data

Results flagged for a closer look

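A gap between 1 library and the rest was measured in groups of 4 as a share of the group's range and set against Dixon's 95% critical value, which chance passes in about 1 in 20 groups. For H3K27me3 percentiles in mb1 cells the share was 1.0 at Eef1akmt3 and 1.0 at Skap2, where replicate 3 alone was above 0 (14 and 12.6). With the other replicates tied at 0 the share is 1.0 at any value of replicate 3, so the critical value does not apply there. The share was 0.951 at Rgs16, where replicate 2 lay at 17.1, and 0.988 at Npm1, a nucleolar protein gene, where replicate 3 lay at 0 and the others at 94.4 to 95.6.

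The difference between systems itself changed from 0 h to 24 h at some genes by limma's interaction term, in lists trimmed to the shortest of both times. For H3K27me3 it moved up at 7 genes and down at 14. For H2AK119Ub it moved up at 6 and down at 53, and for H3K27ac up at 26 and down at 14.

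For H2AK119Ub the change was −82.57 percentile points at Lta and −82.57 at Tnf, and −81.24 at Jak3 (limma adjusted p = 0.000691 each). All 3 were at 0 in every 0 h library, which in these shorter lists means no peak among the strongest and not absence of the mark. Lta and Tnf lay at 86.9, 83.3 and 77.5 in mb1 and 0 in tat libraries at 24 h, although both had a peak in all 3 tat libraries in the longer lists of the 24 h comparison. For H3K27ac the change was −70.83 at Ankrd13d (limma adjusted p = 4.55e-05), −39.98 at Coro1c (0.0014) and −37.07 at Ddah2 (0.00633), again with every 0 h library at 0. In these shorter lists Lta, Tnf, Jak3, Ankrd13d, Coro1c and Ddah2 had a peak only in the 3 mb1 libraries at 24 h. Those libraries alone brought them into the test, and the genes were named by their difference there. Their p-values are therefore no further support for a change between times. At Nutm1 it was 157.71 (limma adjusted p = 4.25e-06), since the systems changed places. Nutm1 lay at 78.9, 66.4 and 77.9 in mb1 and 0 in tat libraries at 0 h, and at 0 in mb1 and 87.5, 79.2 and 83.2 in tat libraries at 24 h. Nutm1 too was named by its difference at 24 h, which is part of this change. Its p-value is therefore no independent support for a change between times.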

How the results depend on the processing

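The signs of the H3K27me3 and H3K27ac library differences in peaks, covered length, width and X:autosome ratio, and of the first 3 for H2AK119Ub, were the same under every alternative run. The H2AK119Ub X:autosome difference of −0.01 turned to 0.315 in deposited lists and 0.517 at equal covered length, and ran from −0.144 to 0.104 without 1 library (0.019 and 0.036 without tat replicates 2 and 3, 0.017 and 0.104 without mb1 replicates 1 and 3).

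Counts of genes called depended more on the setting. For H3K27me3, 616 became 3229 in deposited lists, 98 by highest signal, 2633 by share of signal, 1298 at equal covered length and 0 without mb1 replicates 1 and 4 together, and ran from 416 to 949 without 1 library (949 without mb1 replicate 3). With the replicate block it was 0 (1068 at an unadjusted p under 0.05), for H3K27ac 0 (484), though replicate numbers paired nothing (same-number correlations −0.063 to 0.015). For H3K27ac, 44 became 0 in deposited lists, by highest signal and by share of signal, 100 by covered percent, 23 with no gene filter, 74 without trend, 19 at equal covered length, 78 in promoter windows, and 0 to 55 without 1 library. H2AK119Ub went from 0 to 12 on the log2 scale and 65 without trend. In Xist-deleted cells, deposited lists and highest signal gave 2361 and 195 calls for H3K27me3 (1077 in trimmed lists) and 2425 and 18 for H3K27ac (262). Changes between times gave 2611 and 6 for H3K27me3, 0 and 18 for H2AK119Ub, and 88 and 2 for H3K27ac. The causes were not tested.

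Directions of single genes that turned were as follows. In deposited lists, H3K27me3 differences were −0.40 at Ddx25, −4.95 at Eef1akmt3, −12.53 at Col9a2, −8.93 at Eif4g1, −3.11 at Skap2, −5.28 at Rgs16, −0.35 at Elobl, −0.48 at Sfmbt2, −5.88 at Prdm1 and −0.54 at Tal1. By highest signal they were −5.06 at Col9a2, −0.22 at Eif4g1, −0.02 at Elobl, −1.18 at Neurog2, 0.77 at Adgre1 and −0.67 at Tal1. By covered percent they were −5.56 at Col9a2, −14.55 at Elobl, −1.17 at Sfmbt2, −1.15 at Prdm1 and −11.82 at Tal1. By share of signal (log2) they were 0.03 at Krt18, 1.41 at Hoxd9, 0.66 at Foxc1, 0.99 at Mest, 0.71 at Cebpa and 0.91 at Hba-a1, and at equal covered length 14.39 at Foxc1, 6.13 at Mest and 0.45 at Hba-a1. H2AK119Ub at Cd79a was −38.45 by highest signal, −27.81 by covered percent, −0.35 by share of signal, and ran from −7.58 (without tat replicate 2) to 15.14 (without tat replicate 3), with −2.40 without mb1 replicate 1. H3K27ac was −2.31 at H2-DMa, −1.0 at Cd79b and 2.23 at Bcl2l1 by highest signal, −4.59 at H2-DMa, 0.09 at Atn1 and −2.48 at Irf4 by covered percent, and 0.11 at Atn1 and 0.09 at Jarid2 by share of signal. With 3 or 4 libraries a group and no read depth, differences in list length, width and depth cannot be separated.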
